A study of Mus musculus with 4 samples.

Results

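Chemokines and atypical chemokine receptors were examined as 9 genes of the 46517 counted in the series: the 7 ligands *Cxcl1*, *Cxcl2*, *Cxcl10*, *Cxcl12*, *Ccl2*, *Ccl7* and *Cx3cl1* and the 2 atypical receptors *Ackr1* and *Ackr3*. They were taken as a list of names, matched to the Ensembl gene identifiers of the count files, and not by a threshold on their levels. All 9 were present in the files.

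Blood vascular endothelial cells (BECs) of the ear dermis came from adult female C57Bl/6 mice, for which the sample labels name an age of 12 to 26 weeks and no mutation or treatment, while the study's methods name wild-type C57BL/6 J mice and give a younger, overlapping range of age. Thus all groups below are classes of cells from the same pools of animals. CD31+/CD45-/Lyve1- cells were sorted singly into 4 plates of 384 wells, processed by Smart-seq2, a plate-based method that covers transcripts along their length. The plates form 2 replicates of 2 plates each (A and B), and a replicate is a pool of cells from 6 mice, so that no value below belongs to 1 animal. The labels do not say whether the replicates came from separate sets of mice, so the spread between them may be partly technical.

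Chemokines are small secreted proteins that direct leukocytes to and across the vessel wall, and the wall presents them on its luminal face. Atypical receptors bind chemokines without the usual G protein signalling. Ackr1, known from post-capillary venules, carries inflammatory chemokines across the endothelium, whereas Ackr3 takes up Cxcl12 and thereby shapes its gradients.

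Each well was given to a class without any chemokine or chemokine receptor gene. Wells that met the limits for blood EC (701 of 1536) were clustered, and clusters were named from fixed markers: 57 wells were artery-like (31 of replicate 1 and 26 of replicate 2, with 14 of 15 artery markers such as *Gja4*, *Gja5* and *Hey1* higher than in the other wells), 136 capillary-like (112 and 24, 9 of 10 markers such as *Gpihbp1* and *Cd36*) and 45 vein-like (29 and 16, 7 of 9 markers such as *Selp*, *Nr2f2* and *Vwf*). A further 76 wells (11 and 65) were lymphatic-like, with at least 100 CPM (reads of a gene scaled to a common total per well) of *Prox1*, although the sort was against Lyve1. In 463 wells of 4 clusters neither the artery, the capillary nor the vein class reached the 3 markers needed, and these are called by their leading genes. Among them, the cluster led by *Maf* and *Ripor3* (18 wells) had 5 of 6 lymphatic markers higher, and that led by *Dcn* and *Mmrn1* had 6 fibroblast and 4 mural markers higher. The summed level of 6 lymphatic markers in the latter was 42.3 CPM in replicate 1 and 1708 CPM in replicate 2, with a median of 77.7 CPM over wells of replicate 2. Its wells stayed in the correlations given below. Mural-like wells (8 and 38), with high *Pdgfrb* or *Kcnj8* and little *Pecam1*, served as a background. Genes of other cells were not absent from the classes: the summed level of 9 mural markers was 505 to 1942 CPM in artery-like and capillary-like wells, 51.0 to 692 CPM in vein-like and 67.9 to 280 CPM in lymphatic-like wells, against 15148 to 19329 CPM in mural-like wells. In the 4 classes, that of 7 fibroblast markers was 12.7 to 924 CPM, highest in lymphatic-like wells of replicate 2, that of 8 leukocyte markers at most 25.4 CPM and that of 3 Schwann cell markers at most 4.75 CPM. The sum of 4 keratinocyte markers was 183 and 685 CPM in capillary-like wells and at most 41.2 CPM in the other 3 classes. Mural-like wells in turn held 663 and 52.7 CPM of 5 endothelial, 4610 and 573 CPM of 10 capillary and 3063 and 4911 CPM of 7 fibroblast markers. Capillary markers were also high outside their class: their sum was 13226 and 1948 CPM in artery-like and 5115 and 3177 CPM in vein-like wells, against 17865 and 8733 CPM in capillary-like wells, and their part in the levels compared between these classes was not tested. Vein-like wells were the deepest, with medians of 245700 and 259830 reads in the replicates, against 64951 to 152598 in the other 3 classes. A level below is the CPM of a well averaged over the wells of a class, and its error covers 2 replicates only.

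The stretches directly before the starts of *Cxcl1*, *Cxcl2*, *Cxcl10* and *Cxcl12* are shown because the first 3 genes are textbook targets of NF-kB or interferon signalling and differed widely in level here, and because *Cxcl12* is the ligand read in nearly every blood EC. They are RefSeq sequences of GRCm38.p6, written 5′ to 3′ on the strand of the gene, and capitals mark matches, on either strand, to a kappaB motif, to the interferon-stimulated response element GAAANNGAAA (ISRE) and to the AP-1 element TGANTCA.
Cxcl1 (chr5:90890995-90891240, plus strand): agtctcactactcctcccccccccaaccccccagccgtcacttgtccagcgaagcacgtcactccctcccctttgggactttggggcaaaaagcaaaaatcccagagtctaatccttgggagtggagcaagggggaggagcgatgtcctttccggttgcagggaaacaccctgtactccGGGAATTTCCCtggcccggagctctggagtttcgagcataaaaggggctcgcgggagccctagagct
Cxcl2 (chr5:90903649-90903870, plus strand): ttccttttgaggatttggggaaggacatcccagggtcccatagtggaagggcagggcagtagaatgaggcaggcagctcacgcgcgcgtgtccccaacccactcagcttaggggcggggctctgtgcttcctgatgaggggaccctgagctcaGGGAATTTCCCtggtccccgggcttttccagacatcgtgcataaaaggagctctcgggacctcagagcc
Cxcl10 (chr5:92348890-92349139, minus strand): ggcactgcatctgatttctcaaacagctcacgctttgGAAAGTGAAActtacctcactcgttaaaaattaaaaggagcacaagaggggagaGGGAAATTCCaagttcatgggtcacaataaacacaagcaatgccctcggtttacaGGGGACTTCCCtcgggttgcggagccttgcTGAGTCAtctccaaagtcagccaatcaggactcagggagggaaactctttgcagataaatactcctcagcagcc
Cxcl12 (chr6:117168285-117168534, plus strand): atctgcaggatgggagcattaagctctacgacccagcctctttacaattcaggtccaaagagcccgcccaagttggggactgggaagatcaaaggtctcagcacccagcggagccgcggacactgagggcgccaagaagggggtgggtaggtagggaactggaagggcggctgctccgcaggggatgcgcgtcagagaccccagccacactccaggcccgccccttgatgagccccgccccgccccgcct
*Cxcl1* and *Cxcl2* carried the same kappaB letters, which read as a match on both strands, beginning at -67 and -69, where -1 is the last base printed and the annotated gene starts after it. *Cxcl10* had an ISRE at -213, kappaB matches at -159 and -104, the latter made of overlapping matches, and an AP-1 match at -74. The stretch of *Cxcl12* held none of these motifs. For comparison, 7.25% of 32851 promoters of the same table, read over the 250 bases before the start, held a kappaB match, 2.98% an ISRE match and 6.75% an AP-1 match. Of the 9 genes, 7 had an entry, and *Ccl2* and *Ccl7* did not. A match describes letters and is no evidence of binding.

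*Ackr1* (chr1:173331886-173333750, minus strand), the venular carrier of inflammatory chemokines, was high in vein-like wells and near the background in the other 3 endothelial classes. On plates A and B of replicate 1 its mean level in vein-like wells was 820 and 1564 CPM (10 and 19 wells), and on those of replicate 2 it was 798 and 2329 CPM (12 and 4 wells). The highest plate mean in any other class was 18.8 CPM, in artery-like wells, so the 4 plates of vein-like wells did not overlap with those of the other classes. Most of the 18.8 CPM came from 1 well at 256 CPM, which held a single read. Over the replicates the level was 1244 ± 89.9 CPM (mean ± SD, n = 2) in vein-like, 11.5 ± 1.76 in artery-like, 4.46 ± 5.08 in capillary-like and 4.95 ± 3.84 in lymphatic-like wells, and 3.83 ± 2.98 in mural-like wells. The last 4 values lay within their spread or close to it and do not form an order.

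In the test across all genes *Ackr1* rose in vein-like wells against the mean of artery-like and capillary-like wells, with a log2 fold change of 8.43 (SE 0.74, adjusted p = 0.00249, edgeR's quasi-likelihood test with Benjamini-Hochberg adjustment). It was 7.10 in replicate 1 and 9.52 in replicate 2. *Ackr1* was the only one of the 9 genes called in this comparison, in which 0.171% of 14036 genes were called. Against vein-like wells alone, artery-like wells were lower by a log2 fold change of -8.09 (SE 0.99, adjusted p = 0.0308, edgeR), where 0.0499% of genes were called. This second call was lost without the replicate block (adjusted p = 0.0688), with limma (0.145) and with the 2 ways of drawing classes from marker scores (0.131 and 0.0703), the direction remaining. The classes were drawn with other genes but from the same wells, which the p-values do not cover, and *Ackr1* was among the 10 genes with the largest fold in the vein-like cluster.

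Not every vein-like well carried *Ackr1*. It stood at 100 CPM or more in 22 of 29 and 9 of 16 vein-like wells, while 3 and 6 had no read, and the medians were 1047 and 1069 CPM. After each well was thinned to 20000 reads, 75.9% of vein-like wells of replicate 1 (exact binomial 95% confidence interval 56.5% to 89.7%) and 56.2% of replicate 2 (29.9% to 80.2%) had a read. In artery-like, capillary-like and lymphatic-like wells the thinned shares were 0% to 16.1%, and in mural-like wells, which serve as background, 12.5% and 2.63%. Without thinning, 61.3% of artery-like, 51.8% of capillary-like and 62.5% of mural-like wells of replicate 1 had at least 1 read, so that a single read of *Ackr1* is read as background there. These intervals cover counting error only.

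*Ackr1* also reached 100 CPM in wells that no class took. Vein-like wells held 77.6% and 76.9% of all *Ackr1* reads of blood EC in the replicates, on 8.58% and 4.41% of the wells. A further 20.1% and 19.9% of the reads lay in the cluster led by *Sema7a*, *Lrp5* and *Tacr1*, in which 9 of 67 and 9 of 123 wells reached 100 CPM. Its mean level there was 202 and 81.2 CPM. That cluster had 2 vein markers higher than the other wells and thus stayed below the 3 needed for a name. In replicate 2, 8 of 116 wells of the shallow cluster led by *Dcn* and *Mmrn1* reached it too, with a mean of 71.0 CPM. So did 1 artery-like well (256 CPM) and 1 lymphatic-like well (331 CPM) of that replicate. Each of them held a single read and was the shallowest well of its class there (3913 and 3022 reads).

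The gene whose levels ran most like those of *Ackr1* across blood EC was *Cadm3* (Spearman's rho of 0.658 over 338 wells of replicate 1 and 0.588 over 363 wells of replicate 2), a cell adhesion molecule. *Cadm3* lies next to *Ackr1* on the same strand (chr1:173333258-173367695), and the annotated ranges share 493 bases, so reads there cannot be given to 1 of the pair with certainty. *Cadm3* stood at 241 and 209 CPM in vein-like wells and at 0 to 5.46 CPM in the other 3 classes, and it missed the threshold (log2 fold change 7.87, adjusted p = 0.0802, edgeR). It was not among the genes used for clustering. *Selp*, the adhesion molecule P-selectin and itself a vein marker, followed with 0.404 and 0.316, and *Ret*, a receptor tyrosine kinase, with 0.380 and 0.304. These correlations are across wells that share a plate and differ in depth, and are given as a description. Without the *Maf* and *Ripor3* cluster, *Cadm3* had 0.656 and 0.596.

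**Figure D1:**
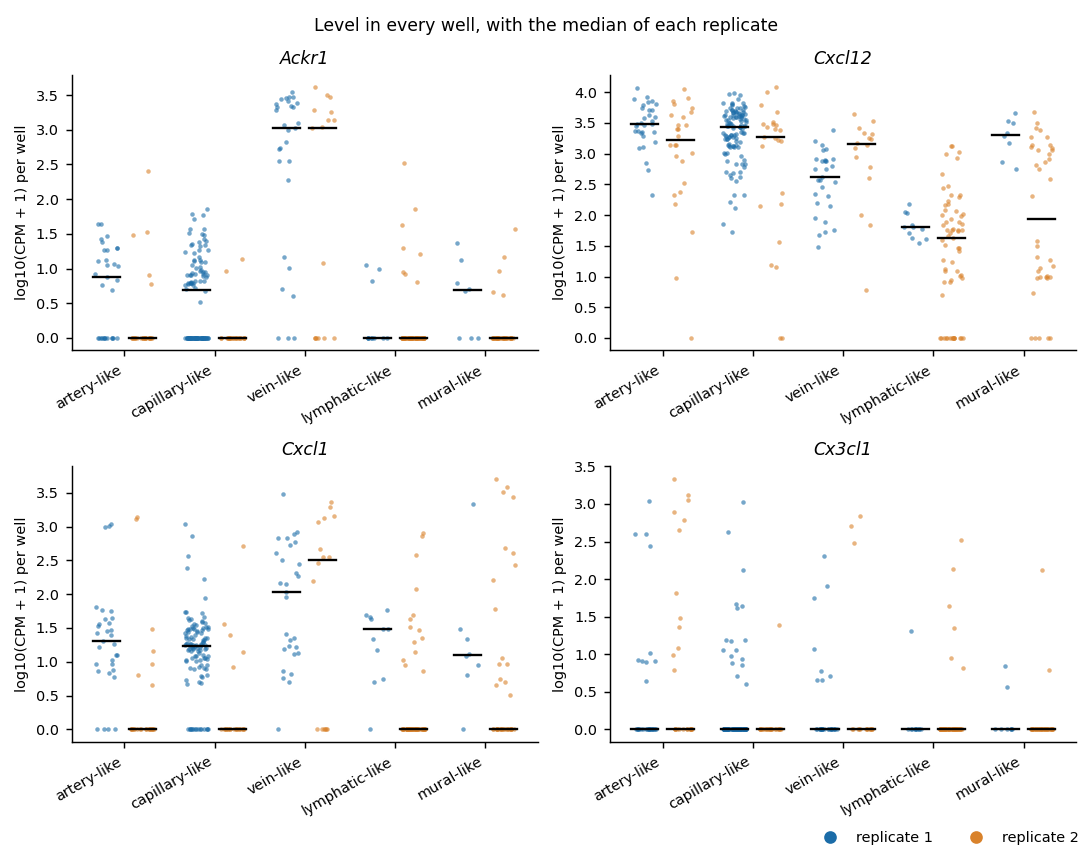
Level of *Ackr1*, *Cxcl12*, *Cxcl1* and *Cx3cl1* in every well (y axis, log10 of CPM plus 1) by class (x axis). Each point is 1 well, blue for replicate 1 and orange for replicate 2, and black bars are medians; the median of *Ackr1* is 1047 and 1069 CPM in vein-like wells and at most 6.67 CPM in each other class.

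*Ackr3* (chr1:90203980-90216751, plus strand), the scavenger of Cxcl12, showed no call in any comparison. Its mean level was 249 and 276 CPM on the plates of replicate 1 and 476 and 51.9 CPM on those of replicate 2 in artery-like wells, 226 and 192 and then 256 and 0.937 CPM in capillary-like wells, and 103 and 24.3 and then 133 and 0 CPM in vein-like wells. The plates of the 3 blood classes overlapped. The order of the means was artery-like (243 ± 38.9 CPM), capillary-like (163 ± 64.3) and vein-like (75.7 ± 34.3), and neighbours in it did not differ beyond their spread. Artery-like wells against the mean of the other 2 blood classes gave a log2 fold change of 1.22 (SE 1.05, adjusted p = 1, edgeR), and vein-like wells gave -1.44 (SE 1.22, adjusted p = 1, edgeR). In vein-like wells of replicate 2, 1 well held 95.5% of the level, and in capillary-like wells of that replicate 1 well, at 1943 CPM, held most of it.

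In lymphatic-like wells *Ackr3* had 7.77 CPM over 11 wells of replicate 1 and 186 CPM over 65 wells of replicate 2, where 12 wells were at 100 CPM or more. The thinned shares of those wells were 27.3% (6.02% to 61.0%) and 30.5% (19.2% to 43.9%), against 12.5% and 26.3% in mural-like wells. Mural-like wells had 334 and 120 CPM, 99.4% of it in 1 well in replicate 1. The small cluster led by *Maf* and *Ripor3* had 134 and 162 CPM in 5 and 13 wells, with 87.0% and 84.4% of the level in 1 well of each, and held 0.758% and 29.6% of the *Ackr3* reads of the wells clustered as blood EC. Its sum of 6 lymphatic markers was 1290 and 4148 CPM, against at most 97.7 CPM in the 3 blood classes and 5233 and 9989 CPM in lymphatic-like wells.

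*Cxcl12* (chr6:117168535-117181367, plus strand), the ligand of Cxcr4 and Ackr3 that is made without inflammation, was the most widely read of the 9 genes. Its plate means were 4732, 3611, 3122 and 2565 CPM in artery-like wells and 2843, 3175, 2176 and 2927 CPM in capillary-like wells, in the order of plates A and B of replicate 1 and then of replicate 2. They were 640, 559, 1659 and 1141 CPM in vein-like wells and 74.3, 62.8, 145 and 142 CPM in lymphatic-like wells. Artery-like and capillary-like plates overlapped, all vein-like plates lay below both, and all lymphatic-like plates lay below the vein-like ones.

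Over the replicates *Cxcl12* stood at 3322 ± 767 CPM in artery-like, 2797 ± 304 in capillary-like, 1058 ± 667 in vein-like and 107 ± 51.2 in lymphatic-like wells (mean ± SD, n = 2). It fell in lymphatic-like wells against the mean of the 3 blood classes (log2 fold change -4.57, SE 0.53, adjusted p = 0.00307, edgeR), at -5.0 in replicate 1 and -4.07 in replicate 2. It was the only one of the 9 genes called there, against a background of 1.28% of genes called. Within blood EC no comparison of *Cxcl12* passed the threshold. Vein-like wells gave -1.62 (SE 0.46, unadjusted p = 0.00603, adjusted p = 0.586, edgeR), with -2.63 in replicate 1 and -0.67 in replicate 2, and artery-like against vein-like wells gave 1.83 (SE 0.51, unadjusted p = 0.00514, adjusted p = 0.739, edgeR). With sums per plate and the plate as a block, these 2 values were -1.81 (adjusted p = 0.0125, edgeR) and 2.04 (adjusted p = 0.015, edgeR) and passed. The plates of a replicate share their pool of mice, so that fit counts wells of the same pool as replicates.

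A read of *Cxcl12* was present in 82.6% to 100% of artery-like, capillary-like and vein-like wells after thinning, in 54.5% and 45.8% of lymphatic-like wells, and in 100% and 63.2% of mural-like wells. Mural-like wells had 2264 and 758 CPM of *Cxcl12*, and no class lacking it served as its background. The part of the capillary and fibroblast genes read in mural-like wells, given above, in this level was not tested. The genes most like it across blood EC were *Sparcl1* (rho of 0.444 and 0.559), *Sparc* (0.422 and 0.427), both matricellular proteins, and *Slc9a3r2* (0.387 and 0.406). Without the *Maf* and *Ripor3* cluster the first was 0.420 and 0.526 and the second 0.399 and 0.385. In the unnamed clusters *Cxcl12* stood at 2430 and 2923 CPM where *Rgs16* and *Rcan1* led, and at 1838 and 2590 CPM where *Sema7a* and *Lrp5* led. It stood at 2633 and 657 CPM where *Dcn* and *Mmrn1* led, and at 127 and 34.7 CPM where *Maf* and *Ripor3* led.

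*Cx3cl1* (chr8:94772009-94782427, plus strand), a ligand tethered to the EC surface and shed by Adam10 and Adam17, was read in a minority of wells of every class. In artery-like wells its plate means were 2.30, 91.4, 356 and 191 CPM, in vein-like wells 21.1, 8.06, 125 and 0 CPM, in capillary-like wells 2.05, 30.1, 2.14 and 0 CPM, and in lymphatic-like wells 2.43, 0, 10.9 and 6.13 CPM. The classes overlapped, and plate A of replicate 1 was low in artery-like wells. At 100 CPM or more stood 4 of 31 and 6 of 26 artery-like wells, 1 of 29 and 3 of 16 vein-like wells and 3 of 112 and 0 of 24 capillary-like wells. The last allows a share of up to 12.5% when 3 wells of the total are taken as the limit, or up to 14.2% by the exact binomial interval. The artery-like against the other blood classes gave a log2 fold change of 2.72 (SE 1.39, unadjusted p = 0.0796, adjusted p = 0.999, edgeR), with 2.66 in replicate 1 and 5.10 in replicate 2. Lymphatic-like wells gave -4.57 (SE 1.85, unadjusted p = 0.0337, adjusted p = 0.411, edgeR), from 2 and 18 reads in all.

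**Figure D2:**
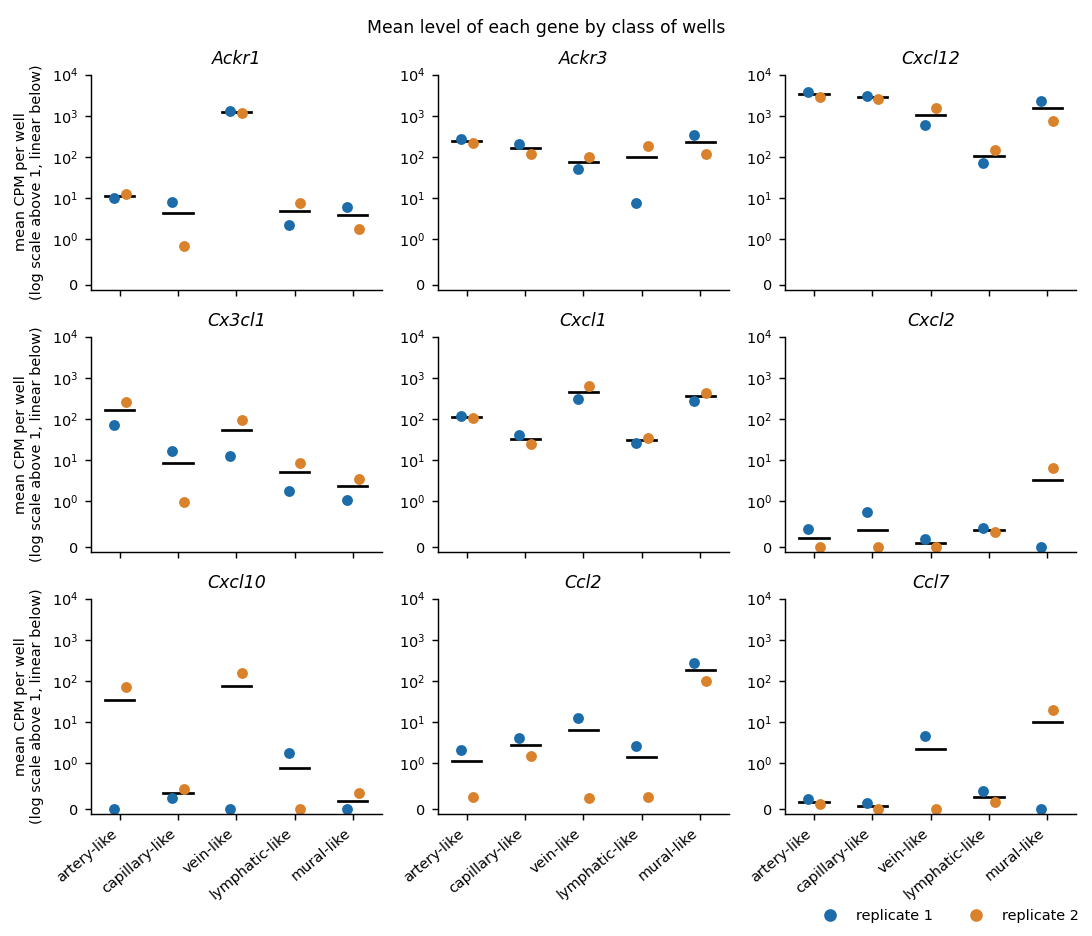
Mean CPM per well (y axis, logarithmic above 1 and linear below) of each of the 9 genes in artery-like, capillary-like, vein-like, lymphatic-like and mural-like wells (x axis). Points are the replicates and bars their mean; *Ackr1* is above 1000 CPM in vein-like wells alone, *Cxcl12* is at 3322 CPM on average in artery-like and 107 CPM in lymphatic-like wells, and *Cxcl2*, *Ccl2* and *Ccl7* stay below 13 CPM in all 4 endothelial classes.

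*Cxcl1* (chr5:90891241-90893115, plus strand), a neutrophil attractant that acts through Cxcr2, had its highest class means in vein-like wells, with 209, 369, 707 and 339 CPM on the plates in the order given above. Artery-like wells had 318, 62.5, 267 and 3.24 CPM, capillary-like wells 26.5, 52.9, 52.8 and 1.54 CPM and lymphatic-like wells 22.5, 37.6, 41.4 and 28.5 CPM. In capillary-like wells of replicate 2 the level rests on 7 reads, with 86.9% of it in 1 well. Pooled over these wells it was 2.60 CPM. Vein-like plates lay above all capillary-like and lymphatic-like plates and overlapped with artery-like ones. Of vein-like wells, 15 of 29 and 10 of 16 were at 100 CPM or more, against 3 of 31 and 2 of 26 artery-like, 5 of 112 and 1 of 24 capillary-like, and 0 of 11 and 4 of 65 lymphatic-like wells.

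The difference of *Cxcl1* did not pass the threshold. Vein-like wells gave a log2 fold change of 2.94 (SE 0.97, unadjusted p = 0.0136, adjusted p = 0.736, edgeR), 1.76 in replicate 1 and 4.86 in replicate 2. Capillary-like wells gave -3.46 (SE 1.20, unadjusted p = 0.017, adjusted p = 1, edgeR). When classes were drawn from marker scores the vein-like value shrank to 0.99, and to 0.65 when the score used only vein markers that cytokines do not induce. It passed without the low-count filter (adjusted p = 0.0393, edgeR) and with thinned wells (adjusted p = 0.0368, edgeR). A read of *Cxcl1* was present in 84.2% to 96.6% of the wells of every larger group of replicate 1, mural-like wells with 87.5% included. A single read therefore does not set the groups apart at that depth, and where such reads came from was not tested. Thinned shares were 79.3% (60.3% to 92.0%) and 62.5% (35.4% to 84.8%) in vein-like wells, against 36.4% to 41.9% in the other 3 classes of replicate 1, 8.70% to 12.0% in those of replicate 2, and 37.5% and 26.3% in mural-like wells. Mural-like wells had 279 and 430 CPM, of which 1 well held 96.1% in replicate 1 and 31.5% in replicate 2. At 100 CPM or more were 1 of 8 and 8 of 38 of them, so mural-like wells do not lack *Cxcl1*.

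Genes that tissue dissociation induces were read in the same wells. The summed level of 17 of them, among them *Fos*, *Jun* and *Atf3*, was 29905 and 28198 CPM in vein-like wells, 15046 and 20342 in artery-like, 13017 and 6635 in capillary-like and 7928 and 4654 in lymphatic-like wells. In mural-like wells it was 11067 and 7793 CPM. It was highest, at 35558 and 37922 CPM, in the unnamed cluster led by *Rgs16* and *Rcan1*, where *Cxcl1* had 174 and 291 CPM and 15 of 56 and 11 of 45 wells were at 100 CPM or more. That was less *Cxcl1* than in vein-like wells (314 and 615 CPM) and more than in artery-like (120 and 105) and capillary-like wells (39.96 and 25.1, the latter from 7 reads). The cluster held 25.2% and 47.0% of the *Cxcl1* reads of blood EC on 16.6% and 12.4% of the wells, and vein-like wells 29.0% and 40.9% on 8.58% and 4.41%. None of the 17 was called in vein-like wells (edgeR; 11 had an unadjusted p under 0.05, as did 5.31% of all genes; the list's median log2 fold change was 1.20, against 0.02 over all genes tested, and DESeq2's Wald test called 3, of which 2 were higher, and 2.79% of all genes). Without the low-count filter edgeR called 9 of them higher, among them *Fos* and *Atf3*, and 0.431% of all genes higher. With thinned wells it called 3 of them and 0.513% of all genes higher. The summed level of 15 NF-kB targets and regulators was 7022 and 10059 CPM in vein-like, 2321 and 3754 in artery-like and 1826 and 1357 in capillary-like wells. Of these 15, *Il6* and *Icam1*, the latter a vein marker of the naming rule, were called higher in vein-like wells, where 0.171% of all genes were called, with a median of 1.35 for the list. The call of *Il6* was lost under 8 of the alternatives and that of *Icam1* under 2 of them, among them the sums per plate for both. The part of dissociation, of depth and of cytokine-inducible vein markers in the levels of *Cxcl1* and *Ackr1* was not tested. The genes most like *Cxcl1* across blood EC were *Il6* (rho of 0.234 and 0.356), *Nfkbiz* (0.227 and 0.235) and *Rnd1* (0.223 and 0.226).

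**Figure D3:**
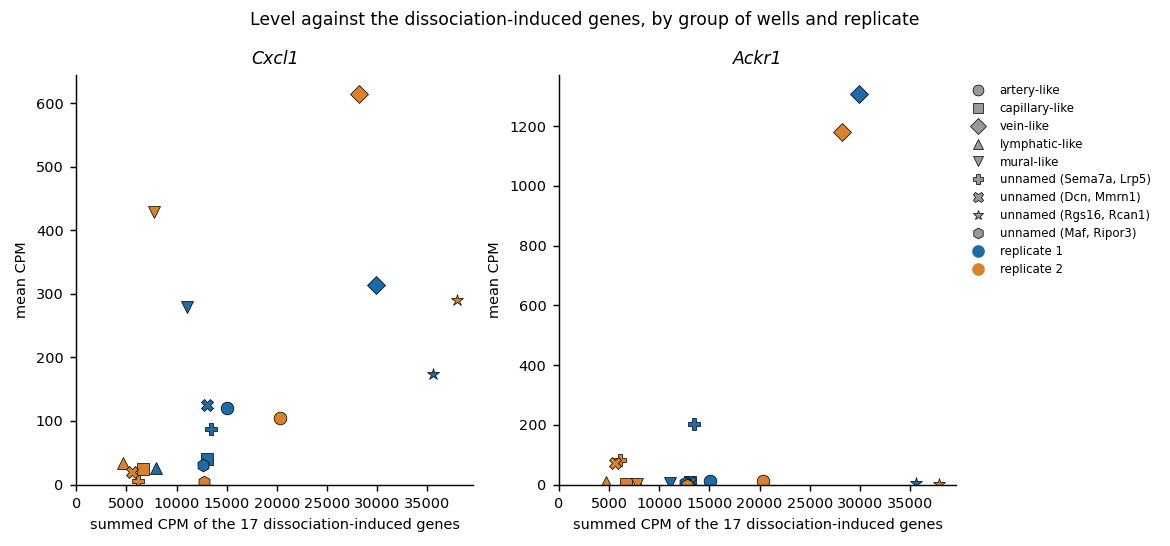
Mean CPM of *Cxcl1* (left) and *Ackr1* (right) on the y axes against the summed mean CPM of 17 dissociation-induced genes (x axes) for the 5 classes and 4 unnamed clusters. Each symbol is 1 group in 1 replicate, blue for replicate 1 and orange for replicate 2; in the cluster with the highest sum (stars, 35558 and 37922 CPM) *Cxcl1* stands at 174 and 291 CPM and *Ackr1* at 5.94 and 0.617 CPM.

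*Cxcl2* (chr5:90903871-90905938, plus strand), the neighbour of *Cxcl1* with the same kappaB letters and the same receptor, was hardly read. The 4 classes held 1, 12, 1 and 1 reads of it in artery-like, capillary-like, vein-like and lymphatic-like wells of replicate 1, and 1 read in lymphatic-like wells and none in the 3 blood classes of replicate 2. A count of 0 of 26 artery-like, 0 of 24 capillary-like and 0 of 16 vein-like wells allows shares of up to 11.5%, 12.5% and 18.8% by the same limit of 3 wells, or 13.2%, 14.2% and 20.6% by the exact binomial interval. Of 71 reads in all blood EC of replicate 1, 50 lay in 4 wells of the cluster led by *Rgs16* and *Rcan1*, and 63 reads lay in 1 mural-like well of replicate 2. It had too few counts to be tested.

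*Cxcl10* (chr5:92346638-92348889, minus strand), a T cell attractant that interferon induces, came from single wells. In replicate 2, 1 vein-like well held all 822 reads of its class and 1 artery-like well held 98.4% of the level of its class, whereas replicate 1 had no read in either. The class means of 76.3 ± 108 and 35.0 ± 49.6 CPM therefore describe 1 well each. No comparison was called, with standard errors of 2.73 to 4.92 on the log2 scale. The gene lies within *Art3* on the opposite strand (chr5:92331827-92414628), and Smart-seq2 does not mark strand, so reads of the pair cannot be told apart in shared exons; *Art3* stood at 109 and 50.1 CPM in artery-like and at 17.4 and 13.8 CPM in vein-like wells. The summed level of 14 interferon-stimulated genes was lowest among the blood classes in vein-like wells, with 546 and 384 CPM, against 1147 to 2071 CPM in artery-like and capillary-like wells. None of the 11 tested was called in the blood comparisons (edgeR; 1 to 4 had an unadjusted p under 0.05, and DESeq2's Wald test called 0 to 2; the median in vein-like wells was -2.25). Of all genes, 4.3%, 4.09%, 5.31% and 4.96% had such a p in artery-like, capillary-like, vein-like and artery-like against vein-like wells, and DESeq2's Wald test called 2.71%, 1.95%, 2.79% and 3.33%.

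*Ccl2* (chr11:82035571-82037453, plus strand) and *Ccl7* (chr11:82045712-82047525, plus strand), monocyte attractants that act through Ccr2, were low in the endothelial classes. *Ccl2* had 2.08 and 0.254 CPM in artery-like, 4.05 and 1.51 in capillary-like, 12.7 and 0.246 in vein-like and 2.62 and 0.275 in lymphatic-like wells, of which 86.9% in vein-like wells of replicate 1 came from 1 well. No comparison was called, and the log2 fold changes lay between -1.24 and 0.46, with standard errors of 1.64 to 2.08. Mural-like wells had means of 277 and 97.7 CPM, carried by 2 wells at 100 CPM or more in each replicate, and medians of 6.69 and 0 CPM. In replicate 2, 373 of 620 *Ccl2* reads of blood EC lay in the cluster led by *Rgs16* and *Rcan1*, where 1 well held 90.1% of the level. A further 240 lay in that led by *Dcn* and *Mmrn1*. *Ccl7* had at most 4.53 CPM in an endothelial class and too few counts to be tested. Larger counts lay outside the classes, with 152 reads in 3 mural-like wells of replicate 2 and 476 reads in 2 wells of the cluster led by *Dcn* and *Mmrn1* in replicate 2, a cluster with 6 fibroblast and 4 mural markers higher. *Ccl2* lies within the non-coding *Gm17268* on the opposite strand, which had no read in any of the 4 classes.

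**Figure D4:**
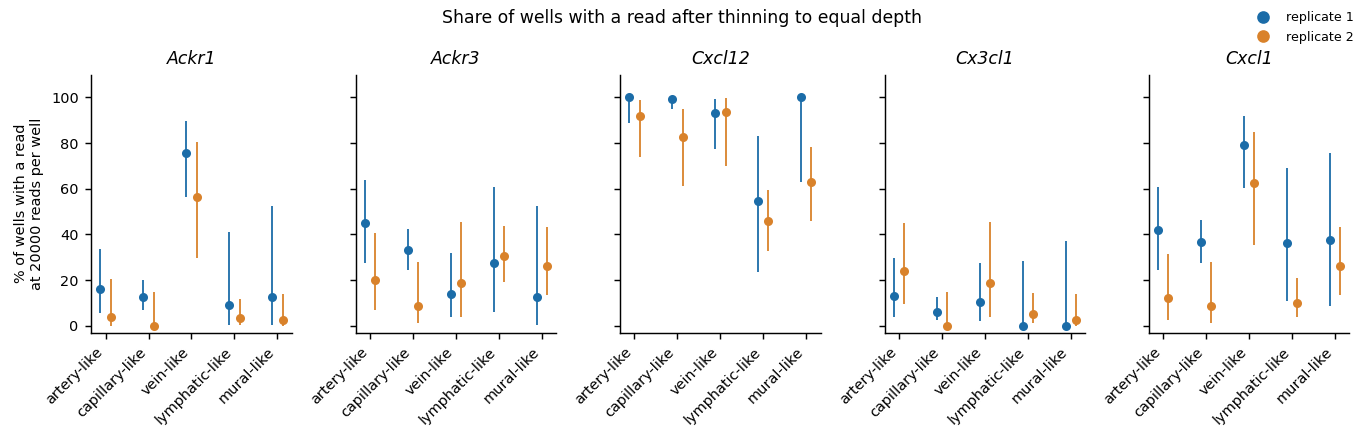
Share of wells with at least 1 read of the 5 more abundant genes (y axis, percent) by class (x axis), after each well was thinned to 20000 reads. Points are shares per replicate and lines exact binomial 95% confidence intervals; *Ackr1* is at 75.9% and 56.2% in vein-like wells and at most 16.1% in the other classes plotted.

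Levels of different genes were compared per kilobase of exon, counting every annotated exon of a gene (8176 bases for *Cxcl12* and 1875 for *Cxcl1*). A gene read mainly from shorter transcripts is understated by this measure, and which transcripts were present was not tested. In vein-like wells *Ackr1* led, with 931 and 840 CPM per kb, followed by *Cxcl1* with 167 and 328 and *Cxcl12* with 71.8 and 187, the latter pair overlapping. In artery-like wells *Cxcl12* led with 473 and 340 CPM per kb, followed by *Ackr3* (80.7 and 64.2), *Cxcl1* (64.1 and 55.9) and *Cx3cl1* (18.1 and 64.8), which overlapped. In capillary-like wells *Cxcl12* led with 368 and 316 CPM per kb, followed by *Ackr3* with 62.4 and 35.2 and *Cxcl1* with 21.3 and 13.4, the last from 7 reads. In lymphatic-like wells none exceeded 55.5 CPM per kb, the level of *Ackr3* in replicate 2.

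Vein-like wells often held several of the genes at once. With a limit of 100 CPM, 15 of 29 vein-like wells of replicate 1 had 2 of the 9 genes and 9 had 3 or more, and in replicate 2 it was 9 and 5 of 16. In artery-like wells 12 and 3 of 31, and 7 and 3 of 26, did so, and in capillary-like wells 29 and 5 of 112, and 2 and 1 of 24. *Ackr1* and *Cxcl1* met at that limit in 11 vein-like wells of replicate 1, with 11 for *Ackr1* alone, 4 for *Cxcl1* alone and 3 for neither. In replicate 2 the numbers were 4, 5, 6 and 1. Across all blood EC their levels ran together weakly or not at all (rho of 0.099 and -0.011), and the pair *Ackr1* and *Ackr3* likewise (0.048 and 0.024). These values describe wells of differing depth.

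**Figure D5:**
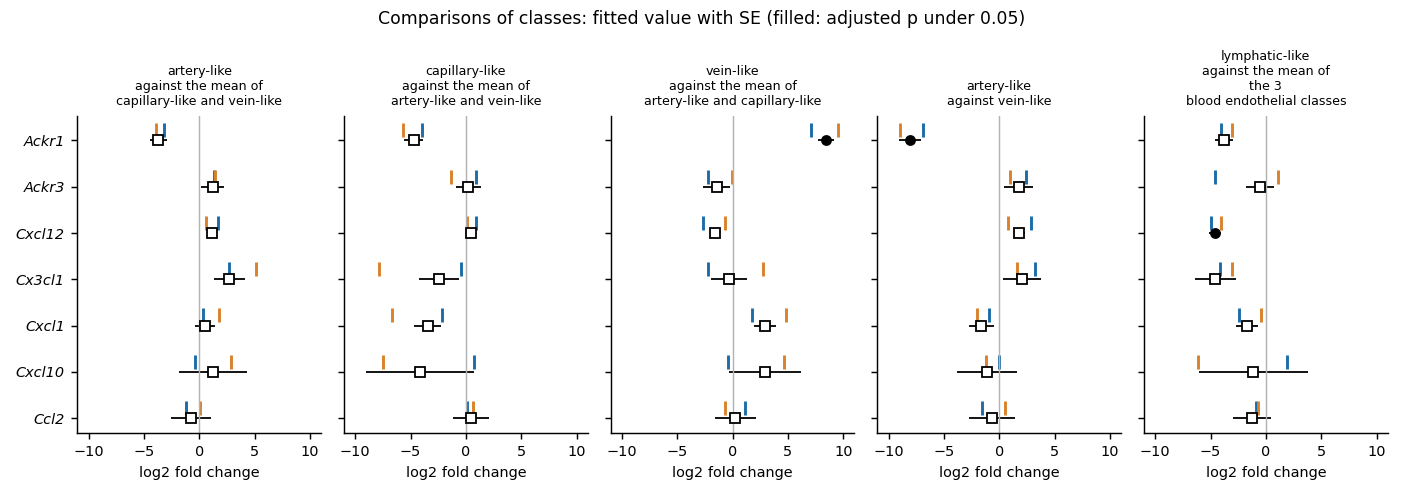
Log2 fold changes (x axis) of the 7 genes with enough counts (y axis) in the 5 comparisons of classes. Squares and circles are fitted values with their SE, filled where the adjusted p is under 0.05, and ticks are the values of replicate 1 (blue) and replicate 2 (orange); filled are *Ackr1* in vein-like wells (8.43) and in artery-like against vein-like wells (-8.09), and *Cxcl12* in lymphatic-like wells (-4.57).

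The remaining comparisons called none of the 9 genes. In artery-like wells against the other blood classes 0.00712% of genes were called, and in capillary-like wells 0.0%. In each of them 2 of the 7 genes tested had an unadjusted p under 0.05 in edgeR (*Ackr1* and *Cxcl12* in artery-like, *Ackr1* and *Cxcl1* in capillary-like wells), as did 4.3% and 4.09% of all genes. DESeq2's Wald test called *Ackr1* in artery-like wells and *Ackr1* and *Cxcl1* in capillary-like wells, all lower, where it called 1.55% and 0.556% of all genes lower, and limma called none. Lymphatic-like wells had lower *Ackr1* than the mean of the blood classes without passing (log2 fold change -3.79, SE 0.79, adjusted p = 0.0604, edgeR), a value that passed under 9 of the alternatives. The other side of each of these *Ackr1* comparisons includes the vein-like wells, at 1244 CPM. Artery-like, capillary-like and lymphatic-like wells stood at 11.5, 4.46 and 4.95 CPM. The 5 comparisons share their sums of wells and are not independent.

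The rest of the chemokine system was sparse. Of 58 further ligands, receptors and trimming enzymes, 13 had no read in the blood and lymphatic EC kept, 53 stayed below 10 CPM in at least 1 replicate and 11 were tested. None was called among blood classes (edgeR; 0 to 3 had an unadjusted p under 0.05 in each comparison, DESeq2's Wald test called 0 to 3 and limma none, against 4.09% to 5.31% of all genes for such a p and 1.95% to 3.33% for DESeq2), and 2 were called higher in lymphatic-like wells, where 1.28% of all genes were called. *Ccl21a*, the lymphatic ligand that draws dendritic cells, had 709 and 2117 CPM there (log2 fold change 8.20, SE 0.53, adjusted p = 0.000193, edgeR), with the reservation that this gene has near-identical copies. It also had a read in 57.9% to 75% of the wells of the other classes and of mural-like wells in replicate 2. *Ackr2*, a scavenger of inflammatory CC chemokines and named here after its values were seen, had 51.8 and 173 CPM in lymphatic-like wells and a single read in the 3 blood classes (adjusted p = 0.0278, edgeR), with 39.0 CPM in mural-like wells of replicate 2.

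Receptors of the 7 ligands, the atypical ones aside, were low in EC. *Cxcr4* and *Cxcr2* had a read in 56 and 44 of 349 EC wells kept of replicate 1, and in 19 and 84 of 428 of replicate 2. *Cxcr4*, the receptor of Cxcl12, had 5.42 and 11.8 CPM in capillary-like wells and 5.86 and 6.42 CPM in the cluster led by *Sema7a* and *Lrp5*, against 0.202 and 0 CPM in vein-like wells. *Cxcr2*, the receptor of Cxcl1 and Cxcl2, had 1.04 to 3.26 CPM in the blood classes, against 1.97 and 5.66 CPM in mural-like wells, and reached 16.1 CPM in the cluster led by *Sema7a* and *Lrp5* in replicate 2. *Ccr1* and *Ccr3* had no read, *Cxcr3* had reads in 1 well, and *Ccr2* and *Cx3cr1* had at most 0.102 and 1.48 CPM over the EC kept. The sheddases *Adam10* and *Adam17* were read broadly, at 161 and 233 and at 105 and 44.3 CPM over the EC kept, and *Dpp4* was not above 4.88 CPM. The chemerin-binding *Ccrl2* had 38.5 and 199 CPM in artery-like wells, 26.1 and 0 in capillary-like and 8.54 and 0 in vein-like wells. *Cxcl16*, a second membrane-tethered ligand, had 129 and 62.9 CPM in vein-like, 52.8 and 0.265 in capillary-like and 2.76 and 0.424 in artery-like wells, with unadjusted p = 0.0209 and adjusted p = 0.794 (edgeR) for vein-like wells.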

How the data were processed

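The series holds 4 plates (384 wells each) of ear dermal BECs, 2 per replicate. The authors aligned single 50-bp reads to mm10 with TopHat2 2.1.1, dropped duplicates (SAMtools 0.1.18) and deposited raw counts per gene made by featureCounts of Subread 1.4.6-p5. The annotation release is not given in the sources used here. Without molecular identifiers, reads are not independent molecules. Genes of the 4 plates summed to 74739095, 63091443, 31864976 and 35546726 reads, with 1143 to 827686 per well, and 92 spike-ins stayed out. No well shared its name or its counts with another. Of 46517 identifiers, 46005 were matched to symbols through GENCODE vM21.

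A blood EC well had at least 600 counts, 500 to 8000 genes, a read of 2 of *Pecam1*, *Cdh5* and *Kdr*, and less than 100 CPM each of *Kcnj8*, *Pdgfrb*, *Ptprc*, *Prox1* and *Lyve1*. The 1000 most variable coding genes, without chemokine-system, NF-kB, interferon-stimulated and dissociation-induced genes, were scaled within replicates, reduced to 15 components and clustered with leidenalg 0.10.2, at the lowest resolution giving all classes (0.4). A name needed 3 artery, capillary or vein markers at least 1.25 times higher. Doublets were not called beyond the gene limit.

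Counts were summed per replicate and class (8 sums). A gene needed 10 counts in 2 sums. The quasi-likelihood test of edgeR 4.0.16 with TMM scaling had the replicate as block, which left 3 residual degrees of freedom, and a threshold of 0.05. The block follows the design, as all classes within a replicate share its pool of mice, and deviations of sums paired by replicate correlated at -0.000602 to 0.107. Alternatives used DESeq2 1.42.0 and limma 3.58.1 (log2 of mean CPM plus 1), and the code was tested on simulated data. Likeness is the lower of the replicates' Spearman correlations over 6885 coding genes read in 10% of blood EC.

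The genes, lists, markers and settings were chosen with earlier results of these data known. Named are the 9 genes, the receptors of the 7 ligands, *Adam10*, *Adam17*, *Dpp4*, other chemokine-system genes at 10 CPM in both replicates, the 3 genes most like each gene where described, and *Ackr2*, *Cadm3*, *Art3* and *Gm17268*, added after their values were seen.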

Additional observations from a re-analysis of the deposited data

Results flagged for a closer look

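Among the 4 plates, 2 of the 9 genes had a plate far from the others in its mean level over all blood EC wells, where chance flags about 1 in 20 groups. *Cxcl1* stood at 51.5 CPM on plate B of replicate 2, against 111, 113 and 111 CPM on the other plates. *Ccl7* stood at 9.68 CPM on plate A of replicate 2, against 0.160, 0.890 and 0.0144 CPM, and 1 well held 84.7% of the level of that replicate.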

How the results depend on the processing

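Over 15 alternatives the log2 fold change of *Ackr1* in vein-like wells lay between 5.94 and 9.52 and that of *Cxcl12* in lymphatic-like wells between -5.0 and -4.07, and both passed wherever a test was possible (highest adjusted p of 0.0443 and 0.00499). With 1 replicate left out there was no test: 7.10 and 9.52 for *Ackr1*, -5.0 and -4.07 for *Cxcl12*. Of the 7 genes tested in the 5 comparisons, *Ackr1* and *Cxcl12* kept their direction in each, and values that changed direction were all uncalled. *Ackr3* in lymphatic-like wells (-0.55) was 0.76 per plate, 0.33 at 300 CPM, 0.83 and 0.86 with the marker scores, and -4.56 and 1.13 without replicate 2 and 1. *Ackr3* in capillary-like wells (0.22) was -0.10 without the replicate block, -0.32 at 300 CPM, and 0.89 and -1.37 without replicate 2 and 1. *Cx3cl1* in vein-like wells (-0.32) was 0.24 without the block, 0.34 with limma, and -2.21 and 2.75 without replicate 2 and 1. *Cxcl1* in artery-like wells (0.51) was -0.082 with limma, -1.11 at 300 CPM, and -0.27 and -0.20 with scores. *Ccl2* without replicate 2 and 1 was 1.13 and -0.73 in vein-like wells (0.26), -1.23 and 0.044 in artery-like wells (-0.72), and -1.58 and 0.51 in artery-like against vein-like wells (-0.66); with the score of uninduced vein markers it was -2.47 in the first and 0.25 in the last, at a resolution of 1.5 it was -0.11 in the first, and at 300 CPM -1.30 in capillary-like wells (0.46). *Cxcl10* without replicate 2 and 1 was -0.38 and 4.62 in vein-like (2.89), -0.38 and 2.87 in artery-like (1.24), 0.75 and -7.49 in capillary-like (-4.13) and 1.91 and -6.09 in lymphatic-like wells (-1.14), the last also 0.68 with DESeq2's Wald test, and artery-like against vein-like wells (-1.10) gave 0.90 per plate. Some that missed the threshold passed under alternatives: *Ackr1* in artery-like and capillary-like wells with DESeq2's Wald test, without the count filter and with thinned wells; *Ackr1* in lymphatic-like wells in 9 alternatives; *Cxcl12* in vein-like and in artery-like against vein-like wells without the filter and per plate, and in artery-like wells without the filter; *Cxcl1* in capillary-like wells with DESeq2's Wald test (adjusted p = 0.0304); *Cx3cl1* in lymphatic-like wells with that test and both marker scores (0.0132 to 0.0436); *Cxcl1* in vein-like wells without the filter (adjusted p = 0.0393) and thinned (0.0368). *Cadm3* passed in 4 alternatives and *Cxcl16* in 1, *Il6* lost its call in 8 and *Icam1* in 2, and *Ccl21a* and *Ackr2* passed in lymphatic-like wells wherever tested. Sums per plate count plates of the same pool of mice as replicates. Except for the block, the causes were not tested.

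The number of genes called moved far more. In artery-like wells (1 gene) it was 380 with DESeq2's Wald test, 73 without the filter, 2 with limma, 14 per plate, 24 thinned, 4 at a limit of 300 CPM, 0 with each of the marker scores, 2 at the next resolution and 4 at a resolution of 1.5. In capillary-like wells (0 genes; 574 at an unadjusted p under 0.05, edgeR) it was 274, 105, 2 per plate and 14 thinned, with limma at 0. In vein-like wells (24 genes, 21 higher) it was 392, 148, 58 per plate, 70 thinned, 3 and 1 with marker scores, 9 at 1.5, and 15 without the replicate block, while limma called 23, of which 13 were higher. Artery-like against vein-like wells (7 genes, 2 higher) gave 4 with DESeq2's size factors (0 higher), 468, 113, 37 per plate, 40 thinned, 11 at 300 CPM, 0 and 0 with scores and 12 at the next resolution. Lymphatic-like wells (179 genes, 99 higher) gave 1249, 601, 384 with limma (178 higher), 409 per plate (273 higher), 420 thinned, 282 at 300 CPM, and 447 and 472 with scores (180 and 198 higher). Without the replicate block, *Ackr1* in artery-like against vein-like wells was lost (adjusted p = 0.0688), as was *Il6* in vein-like wells (0.0534). The resolution of 1.5, the clustering without *Cadm3*, *Art3* and *Gm17268* and the correlations without the *Maf* and *Ripor3* cluster were chosen after seeing the data. *Cadm3*, *Art3* and *Gm17268* were not among the genes used for clustering. Leaving them out, 1 of the 15 alternatives, therefore could not change the classes or the calls. A limit of 10 CPM gave no classes and was not run. In both replicates, and under each of 7 alternatives, 5 of the 9 genes reached 10 CPM in a class.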
